A study of Homo sapiens with 2 samples.

Results

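The enzymes described here are 10 genes that make and desaturate fatty acids, taken by symbol from a table of 58884 genes. They are ACLY, ACSS2 and ME1, which supply carbon and NADPH, the acetyl-CoA carboxylases ACACA and ACACB, the fatty acid synthase FASN, the elongase ELOVL6, and the desaturases SCD, FADS1 and FADS2. All 10 were found, and all 10 had a mean of at least 1 TPM (a length-corrected share of all transcripts of a library, scaled to 1000000). RNA came from TPC-1, an established line of human papillary thyroid carcinoma. One group received a control siRNA and the other an siRNA against XPR1, the phosphate exporter, with 1 library in each. The time after transfection is not given in the sources used here. With 1 library in each group there is no replicate check and no test of the conditions. The intervals below are 95% Clopper-Pearson intervals of the ratio of the libraries, and they cover counting error only.

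About 15780000 reads lay behind the control library and 15150000 behind the XPR1-siRNA library, and XPR1 itself was 39.2 and 5.31 TPM. Of 15 thyroid and epithelial markers, 6 reached a mean of 1 TPM. The thyroid factor PAX8 was 588.1 TPM with the control siRNA and 408.6 TPM with XPR1 siRNA, FOXE1 was 11.1 and 13.7 TPM, and HHEX was 13.0 and 12.3 TPM. The keratins KRT18 and KRT8 were 135.9 and 94.0 TPM, and 49.8 and 37.0 TPM. KRT7, the only one of the 6 beyond 1.5-fold, was 11.1 and 3.39 TPM, a ratio of 0.306 (0.222 to 0.412). NKX2-1, TSHR, SLC5A5 and EPCAM were listed at 0 in both libraries. Of 12 adipocyte markers 5 were listed at 0 in both libraries, among them ADIPOQ, LEP and FABP4, and the highest was PPARG at 17.7 and 24.3 TPM. No leukocyte marker exceeded 0.598 TPM. The hepatocyte list, in which ALB, APOB and HNF4A were listed at 0 in both libraries, summed to 372.9 and 180.1 TPM, nearly all of it SERPINA1. The fibroblast list summed to 29.5 and 45.7 TPM, most of it FBLN1 at 26.8 and 34.3 TPM. Within it COL1A1 was 1.04 and 6.67 TPM and PDGFRB 1.03 and 3.24 TPM, while DCN and FAP were listed at 0. The part of such cells in the results was not tested.

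Cells build fatty acids in the cytosol from acetyl-CoA. ACLY makes it from exported citrate and ACSS2 from acetate, the carboxylases turn it into malonyl-CoA, and FASN joins these units into palmitate with reducing power from NADPH. ELOVL6 lengthens palmitate, SCD puts the first double bond into saturated chains, and FADS2 and FADS1 act in turn on polyunsaturated chains. Most of these genes are known targets of the SREBP transcription factors, which also drive sterol synthesis.

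Most of the 10 enzymes had more transcript in the XPR1-siRNA library. On the scale of log2(TPM + 1), 7 were at least 1.5-fold higher, none was at least 1.5-fold lower, and 3 lay within 1.5-fold. Over all 16319 genes that averaged 1 TPM or more, 21.7% passed that threshold upward and 16.6% downward. Among protein-coding genes those shares were 20.7% and 11.1%. At a threshold of 2-fold, 6 of the 10 were higher, against 10.4% of all genes. The median difference of the 10 was 1.08 on that scale, beside 0.05 over all genes, and the values ran from 0.03 for FADS2 to 1.82 for ACLY. ACACB, at 1.76, depended on the pseudocount: it was 2.10 with 0.1, above ACLY at 1.83, and 1.05 with 5. Mean level and difference were only weakly related across the 10 enzymes (Spearman's rho 0.13, a description across genes of the same libraries). In bulk RNA, more cells with a transcript and more transcript per cell cannot be told apart.

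**Figure D1:**
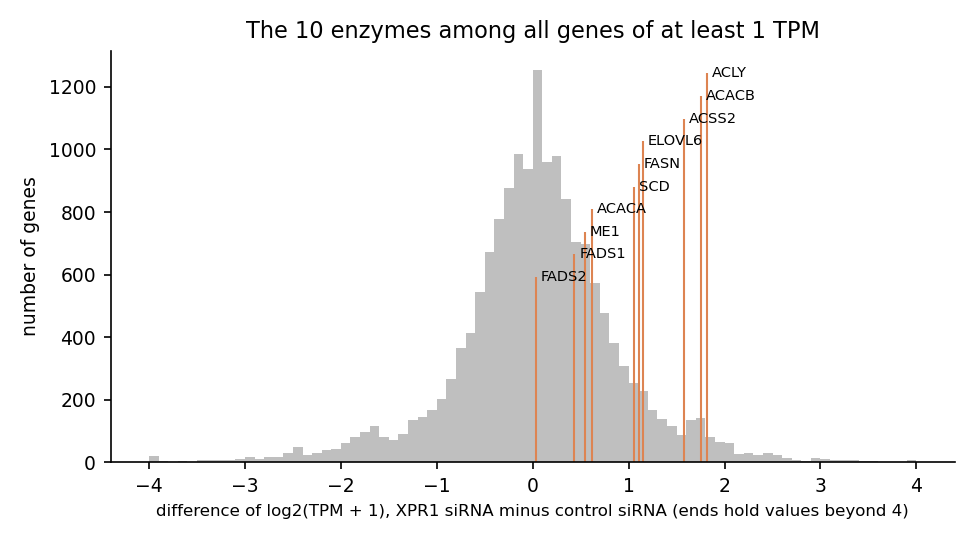
Histogram of the difference of log2(TPM + 1), XPR1 siRNA minus control siRNA, over 16319 genes averaging 1 TPM or more (x axis, log2 units; y axis, number of genes). Vertical lines mark the 10 enzymes, which lie between 0.03 (FADS2) and 1.82 (ACLY), all to the right of 0; line heights only separate the labels.

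The start regions of these genes are shown as a description of sequence. Factors that control such genes bind DNA motifs near the start. No binding was measured here, and its part in the enzymes' values was not tested. RefSeq promoter windows on GRCh38.p14, each of 300 bases from 250 before to 50 after a start, were found for 9 of the 10 enzymes, in 15 windows, and not for FASN. Of these, 3 are printed 5′ to 3′ on the strand of the gene: ACLY with the second highest ratio, SCD with the highest level, and FADS2 with the ratio nearest to 1. Capitals mark CCAAT, the box bound by NF-Y, a factor that works beside SREBP, or its reverse complement ATTGG.
ACLY, chr17:41918973-41919272, minus strand: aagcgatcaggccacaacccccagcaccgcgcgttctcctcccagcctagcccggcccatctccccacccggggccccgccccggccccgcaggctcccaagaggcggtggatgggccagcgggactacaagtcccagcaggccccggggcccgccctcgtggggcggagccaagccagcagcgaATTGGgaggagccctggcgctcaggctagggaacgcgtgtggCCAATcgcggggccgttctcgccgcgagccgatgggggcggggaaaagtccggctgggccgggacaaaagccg
SCD, chr10:100346983-100347282, plus strand: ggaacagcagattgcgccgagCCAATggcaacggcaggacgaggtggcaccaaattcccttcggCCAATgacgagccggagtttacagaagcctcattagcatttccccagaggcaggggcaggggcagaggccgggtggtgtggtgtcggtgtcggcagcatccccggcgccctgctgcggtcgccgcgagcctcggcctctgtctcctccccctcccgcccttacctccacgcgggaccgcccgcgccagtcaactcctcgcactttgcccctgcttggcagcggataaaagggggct
FADS2, chr11:61816154-61816453, plus strand: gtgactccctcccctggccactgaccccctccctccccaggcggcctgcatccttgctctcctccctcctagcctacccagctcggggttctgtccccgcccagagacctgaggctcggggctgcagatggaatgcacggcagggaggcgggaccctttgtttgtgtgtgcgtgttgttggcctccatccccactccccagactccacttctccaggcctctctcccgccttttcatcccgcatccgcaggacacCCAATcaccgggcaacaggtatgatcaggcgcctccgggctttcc

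In the ACLY window the boxes began 65 and 23 bases before the start, and in the SCD window 229 and 186 bases before it. The table holds a further start for each of ACLY and FADS2. From the other ACLY start the same boxes began 136 and 94 bases before it. The printed FADS2 window had a single box, 6 bases past the start, and the other FADS2 window had none. No box lay in the windows of ELOVL6, ME1 and FADS1, whose ratios were 2.32, 1.46 and 1.36. ACACA, ACACB and ACSS2 each had both a window with a box and a window without. Whether the box goes with the ratio of an enzyme was not tested. Searched on both strands, CCAAT was in 8 of the 15 windows, against 34.6% of all 35116 windows in the RefSeq table. Among windows of genes that averaged 1 TPM or more the share was 34.7%. By gene, it was in 6 of the 9, against 10846 of 27305 genes in that table. Windows of the sterol enzymes held it in 15 of 20. The GC box GGGCGG was in 12 of the 15, against 45.0% of all windows and 65.6% of windows of genes that averaged 1 TPM or more. The sterol regulatory core TCACNCCAC was in none of the 15, in none of the 20 windows of sterol enzymes and in 1.13% of all windows. Its share was 1.07% among windows of genes that averaged 1 TPM or more. At shares that low, its absence from 15 windows cannot show that these genes lack such an element, and FASN had no window. The E-box CACGTG was in none of the 15, in 7.26% of all windows and in 9.36% of windows of genes that averaged 1 TPM or more. Some of these motifs can overlap at their end letters, so matches may share bases, and windows of the same gene can overlap in sequence.

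Among the enzymes that supply acetyl-CoA, ACLY (ENSG00000131473, chromosome 17, 41866908 to 41930542, minus strand of GRCh38) was 128.6 TPM with the control siRNA and 456.0 TPM with XPR1 siRNA. It was 3.55-fold higher (3.40 to 3.70), and its difference ranked 96th from the highest among 8264 protein-coding genes that averaged 10 TPM or more. ACLY stood 936th by level among protein-coding genes in control and 191st after XPR1 siRNA. ACSS2 (chromosome 20, 34872146 to 34927962), which activates acetate, was 18.9 and 58.4 TPM, 3.09-fold higher (2.77 to 3.45), and ranked 177th. ACLY transcript was 6.80 times that of ACSS2 in control and 7.80 times after XPR1 siRNA, so the citrate route stayed the more abundant in transcript. ME1 (chromosome 6, 83210389 to 83431071), the cytosolic malic enzyme that yields NADPH, was 80.0 and 116.8 TPM. Its ratio of 1.46 (1.35 to 1.58) lay below the 1.5-fold threshold. ACLY transcript was 1.61 times that of ME1 in control and 3.90 times after XPR1 siRNA.

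The carboxylase isozymes differed in both level and ratio. ACACA (chromosome 17, 37084988 to 37406818), the cytosolic form that feeds FASN, was 42.1 TPM with the control siRNA and 65.0 TPM with XPR1 siRNA. It was 1.54-fold higher (1.46 to 1.63), just past the threshold, and fell short of it under median-of-ratios and upper-quartile scaling (0.56 and 0.53 on the log2 scale, where 1.5-fold is 0.585). ACACB (chromosome 12, 109116595 to 109268226), the form at the outer mitochondrial membrane whose malonyl-CoA restrains fatty acid import, was 2.30 and 10.2 TPM. It had the highest ratio of the 10, at 4.42 (3.67 to 5.34), on 141 and 599 reads. ACACA transcript was 18.3 times that of ACACB in control and 6.39 times after XPR1 siRNA. Despite its ratio, ACACB made up only 0.447% of the summed TPM of the 10 enzymes after XPR1 siRNA.

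FASN (chromosome 17, 82078333 to 82098332), the synthase itself, was 71.6 TPM with the control siRNA and 155.7 TPM with XPR1 siRNA. It was 2.17-fold higher (2.08 to 2.28). FASN transcript was 1.70 times that of ACACA in control and 2.40 times after XPR1 siRNA. ELOVL6 (chromosome 4, 110045846 to 110199199), which takes palmitate to stearate, was 12.8 and 29.6 TPM, 2.32-fold higher (2.05 to 2.62), on 394 and 878 reads. The intervals of FASN and ELOVL6 overlapped.

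SCD (chromosome 10, 100347124 to 100364834), the main stearoyl-CoA desaturase, was the most abundant of the enzymes, at 610.8 TPM with the control siRNA and 1269 TPM with XPR1 siRNA. It was 2.08-fold higher (2.04 to 2.12) and moved from 155th to 61st by level among protein-coding genes. The ratio of SCD to FASN transcript was close in both libraries, at 8.53 in control and 8.15 after XPR1 siRNA. SCD5, the second human stearoyl-CoA desaturase and no member of the 10, was 16.7 and 57.5 TPM, 3.44-fold higher (3.03 to 3.93). Both genes of this kind were therefore past 1.5-fold.

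The polyunsaturated desaturases lay closer to control. FADS1 (chromosome 11, 61799625 to 61829318, minus strand) was 80.1 TPM with the control siRNA and 108.6 TPM with XPR1 siRNA, a ratio of 1.36 (1.30 to 1.42). FADS2 (chromosome 11, 61792980 to 61867354, plus strand) was 4.47 and 4.60 TPM, a ratio of 1.03 (0.845 to 1.25), on 208 and 206 reads. FADS2 was the only enzyme of the 10 whose interval held 1, and its log2 difference was -0.01 with median-of-ratios and -0.04 with upper-quartile scaling. FADS3, their neighbour in the same cluster, was 25.8 and 26.3 TPM, a ratio of 1.02 (0.915 to 1.14). FADS1 transcript was 17.9 times that of FADS2 in control and 23.6 times after XPR1 siRNA.

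Reads of FADS1 and FADS2 are not fully separable. Their genes run on opposite strands, with RefSeq starts 599 bases apart, and share 490 exonic bases in GENCODE 29, 4.79% of the FADS1 exons and 4.44% of those of FADS2. The library kit does not mark strand. FADS2 also shares 49 exonic bases with FEN1, a flap endonuclease of DNA replication, which was 25.1 and 90.2 TPM, 3.59-fold higher (3.12 to 4.13). Their part in the FADS2 value was not tested. None of the other 8 enzymes shared exonic bases with a gene above 0 TPM.

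**Figure D2:**
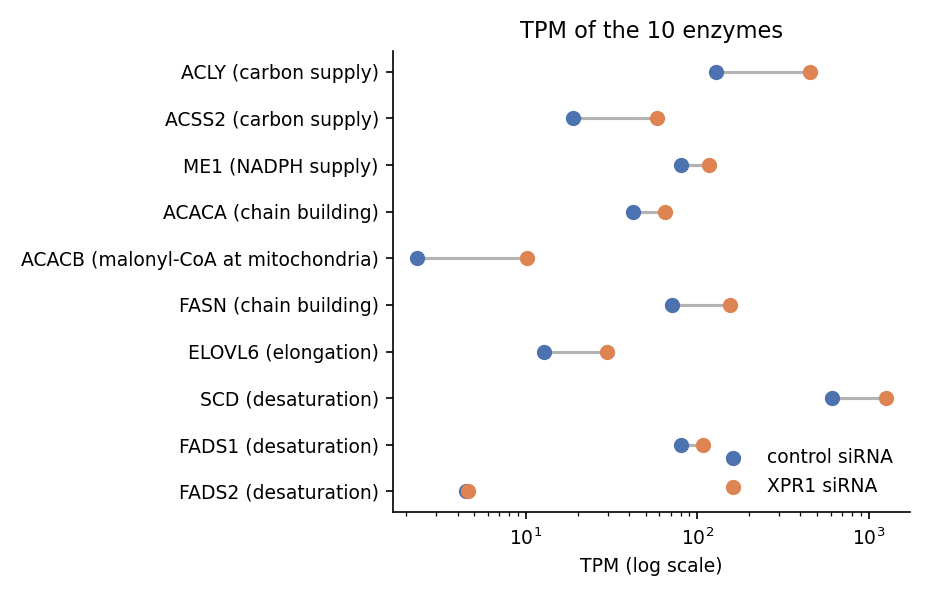
TPM of each enzyme (x axis, log scale) in the control-siRNA library (blue) and the XPR1-siRNA library (orange), 1 library each, joined by a grey line. SCD is the highest in both, at 610.8 and 1269 TPM, and the FADS2 points nearly coincide at 4.47 and 4.60 TPM.

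By ratio, the enzymes formed a graded order. ACACB, ACLY and ACSS2 came first, and each of these intervals overlapped that of its neighbour in the order. ELOVL6, FASN and SCD followed, with overlapping intervals between 2.04 and 2.62. The intervals of ACACA and ME1 overlapped. That of FADS1, next in order, overlapped that of ME1 but not that of FADS2. Counting error therefore separated neighbours in this order at 3 places: between ACSS2 and ELOVL6, between SCD and ACACA, and between FADS1 and FADS2.

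**Figure D3:**
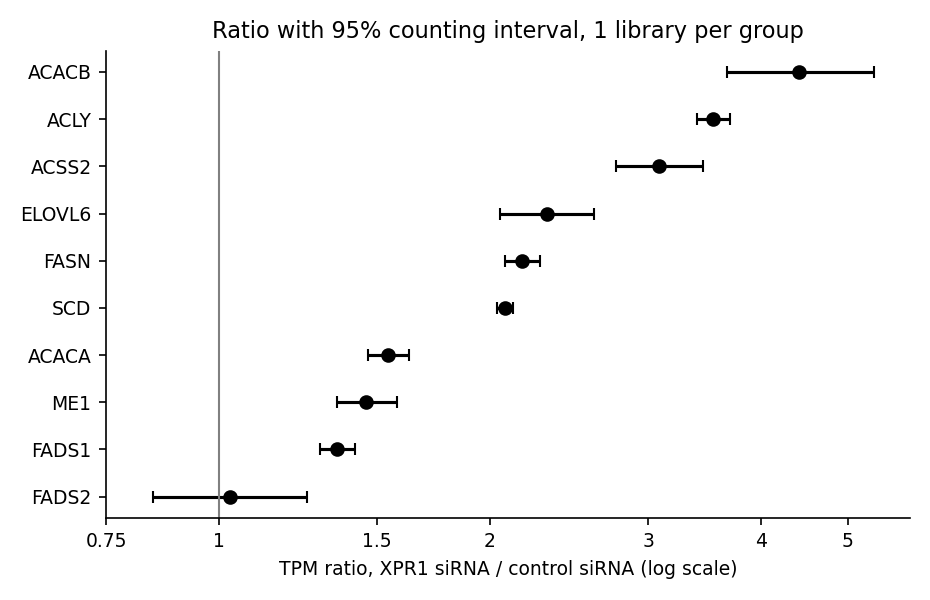
Ratio of TPM, XPR1 siRNA over control siRNA, for each enzyme (x axis, log scale), with 95% Clopper-Pearson intervals from recovered reads as bars, which cover counting error only. The order runs from ACACB at 4.42 to FADS2 at 1.03, and the grey line marks equal values.

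Summed over the 10 enzymes, transcript was 1052 TPM with the control siRNA and 2274 TPM with XPR1 siRNA, 2.16-fold higher. Without SCD the sums were 440.9 and 1005 TPM, 2.28-fold higher. SCD made up 58.1% of the sum in control and 55.8% after XPR1 siRNA. The share of ACLY went from 12.2% to 20.0%, that of ME1 from 7.61% to 5.14% and that of FADS1 from 7.62% to 4.77%. FASN held 6.81% and 6.85%.

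**Figure D4:**
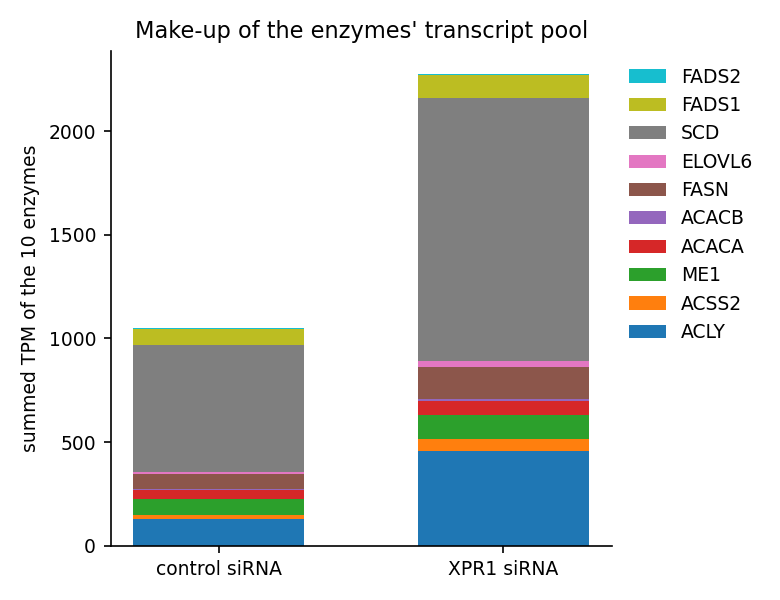
Stacked bars of the summed TPM of the 10 enzymes (y axis, from 0) in the control-siRNA and XPR1-siRNA libraries, 1 each, coloured by gene. The sum is 1052 TPM with the control siRNA and 2274 TPM with XPR1 siRNA, and SCD and ACLY together fill most of both bars.

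Genes around the pathway were described from lists written with earlier results of these data known. Each count below stands beside the shares over all expressed genes, 21.7% higher and 16.6% lower, and several lists lay near them. Of 18 expressed genes that supply carbon and NADPH, 7 passed 1.5-fold upward and 2 downward, with a median of 0.40. SLC25A1, the mitochondrial carrier that exports citrate to ACLY, was 71.7 TPM with the control siRNA and 160.9 TPM with XPR1 siRNA, 2.24-fold higher (2.04 to 2.47). IDH1, a cytosolic source of NADPH, was 50.5 and 142.1 TPM. It was 2.81-fold higher (2.62 to 3.03), above the 1.46 of ME1. MPC2, a subunit of the pyruvate carrier of mitochondria, was 34.2 and 67.7 TPM, whereas its partner MPC1 was 39.4 and 25.5 TPM. The other lower gene was HLCS, which attaches biotin to the carboxylases, at 19.9 and 12.1 TPM.

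Partners of the elongase were higher or within 1.5-fold, and those of the desaturases were on both sides. Of 9 expressed genes of elongation other than ELOVL6, 3 were higher, none was lower and the median was 0.27. TECR, the reductase that ends each elongation cycle, was 20.2 and 45.5 TPM, and the dehydratases HACD2 and HACD3 were 27.4 and 52.8 TPM, and 62.4 and 96.5 TPM. ELOVL5, an elongase of polyunsaturated chains, was 143.2 and 210.0 TPM, 1.47-fold (1.39 to 1.55). Of 9 further genes of desaturation, 4 were higher and 1 lower, with a median of 0.36. CYB5A and CYB5B, cytochromes b5 that pass electrons to membrane desaturases, were 6.39 and 18.3 TPM, and 28.0 and 63.9 TPM. The reductase CYB5R3, which loads cytochrome b5, was 183.1 and 129.2 TPM, a ratio of 0.706 (0.674 to 0.738). CYB5R2, a further reductase of that family, was 1.99 and 0.0287 TPM, and the latter is 1 read.

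Regulators of the pathway were mostly within 1.5-fold. Of 15 expressed genes of SREBP control and SREBP targets outside the pathway, 3 were higher, 1 lower and 11 within 1.5-fold, with a median of -0.08. SREBF1, whose product drives fatty acid synthesis genes above all, was 43.6 TPM with the control siRNA and 32.7 TPM with XPR1 siRNA, a ratio of 0.749 (0.692 to 0.811). The table gives 1 value per gene, so the SREBF1 isoforms cannot be told apart. SREBF2, the factor of sterol genes, was 158.9 and 196.6 TPM, a ratio of 1.24 (1.19 to 1.28), so SREBF2 transcript was 3.64 times that of SREBF1 in control and 6.02 times after XPR1 siRNA. PNPLA3, a lipase of lipid droplets and a target of SREBP, was 14.8 and 26.2 TPM, 1.77-fold higher (1.48 to 2.12). MLXIP, a glucose-sensing relative of ChREBP, was 29.2 and 45.7 TPM. INSIG1, a sterol-sensing brake on SREBP and itself a target of it, was 117.4 and 182.0 TPM, 1.55-fold higher (1.46 to 1.65).

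MID1IP1, which helps acetyl-CoA carboxylase to polymerise, was the lower gene of that list, at 72.8 and 40.7 TPM, 1.79-fold lower. Its paralogue THRSP was listed at 0 in both libraries. MLXIPL, which encodes the carbohydrate-response factor ChREBP, was near 0.1 TPM in both. Of 13 expressed genes that regulate the carboxylases or FASN, none was higher and 2 were lower, with a median of -0.15. PRKAA1 and PRKAA2, catalytic subunits of AMPK, the kinase that inhibits acetyl-CoA carboxylase, were 67.6 and 46.9 TPM, and 21.6 and 18.4 TPM. CAMKK2, a kinase that activates AMPK, was 40.7 and 28.6 TPM, and like PRKAA1 and PRKAA2 it lay within 1.5-fold. CAB39, a partner of the AMPK-activating kinase STK11, was 119.3 and 71.5 TPM, and STK11 itself was 25.1 and 27.4 TPM. OLAH, a thioesterase that releases shorter chains from FASN, was 5.01 and 0.625 TPM.

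Lists of later steps of fatty acid use had medians from -0.26 to 0.44. Of 9 acyl-CoA synthetases and binding proteins 4 were higher and none lower (median 0.44), among them ACSF2 at 5.27 and 16.3 TPM and ACSL4 at 171.2 and 260.7 TPM. DBI, which binds acyl-CoA, was 80.2 and 139.3 TPM, and the transporter SLC27A3 was 0.347 and 1.85 TPM. Of 17 genes of glycerolipid synthesis and lipid droplets 2 were higher and 4 lower (median -0.04). G0S2, an inhibitor of triglyceride lipase, was 4127 and 1242 TPM, the acyltransferases GPAT3 and AGPAT5 65.3 and 30.4 TPM, and 36.5 and 18.6 TPM, and the droplet coat protein PLIN3 61.5 and 150.4 TPM. Of 6 expressed genes of uptake and binding none was higher and 1 lower, the lipase LIPG at 34.4 and 1.05 TPM (median -0.26). CAV1, the coat protein of caveolae, was 832.5 and 592.8 TPM, the lipoprotein receptor VLDLR 28.4 and 22.8 TPM, and the lysolipid transporter MFSD2A 14.5 and 12.4 TPM. Of 26 genes of lipolysis and oxidation 7 were higher and 1 lower (median 0.30). The lysosomal lipase LIPA was 37.3 and 125.9 TPM, and CPT1A, the import step that malonyl-CoA inhibits, was 14.5 and 23.4 TPM, 1.62-fold higher (1.42 to 1.84). HADH and ECI2, enzymes of oxidation, were 5.82 and 10.7 TPM, and 30.9 and 52.5 TPM.

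The separate synthesis pathway of mitochondria, which makes the precursor of lipoate, had a median of 0.02 over 10 genes. It was -0.03 with median-of-ratios and -0.06 with upper-quartile scaling. Only HSD17B8 was at least 1.5-fold higher, at 1.64 and 3.83 TPM on 8 and 18 reads, with an interval of the ratio that held 1 (0.968 to 6.22), and none was lower. The synthase OXSM was 17.0 and 11.0 TPM and the reductase MECR 21.9 and 14.8 TPM.

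Sterol synthesis, the other pathway under SREBP, is the closest comparison. Of its 20 enzymes 19 passed 1.5-fold upward and none downward, and their median was 1.22, beside 7 of 10 and 1.08 for the fatty acid enzymes. ACAT2, which joins acetyl-CoA units at the start of the sterol path, was 17.5 and 94.0 TPM, 5.38-fold higher (4.77 to 6.09), above the 4.42 of ACACB. EBP and HSD17B7, enzymes of its later steps, were 6.57 and 31.2 TPM, and 6.60 and 24.7 TPM. Whether the pathways differ was not tested. Proliferation markers were also higher, 15 of 15 with a median of 1.37, and their summed level was 532.4 TPM with the control siRNA and 1509 TPM with XPR1 siRNA. The replication clamp PCNA was 58.8 and 292.5 TPM, the helicase subunit MCM4 38.1 and 128.5 TPM, and the nucleotide enzymes TK1 and RRM2 12.8 and 53.4 TPM, and 16.5 and 56.7 TPM. Their part in the enzymes' values was not tested.

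**Figure D5:**
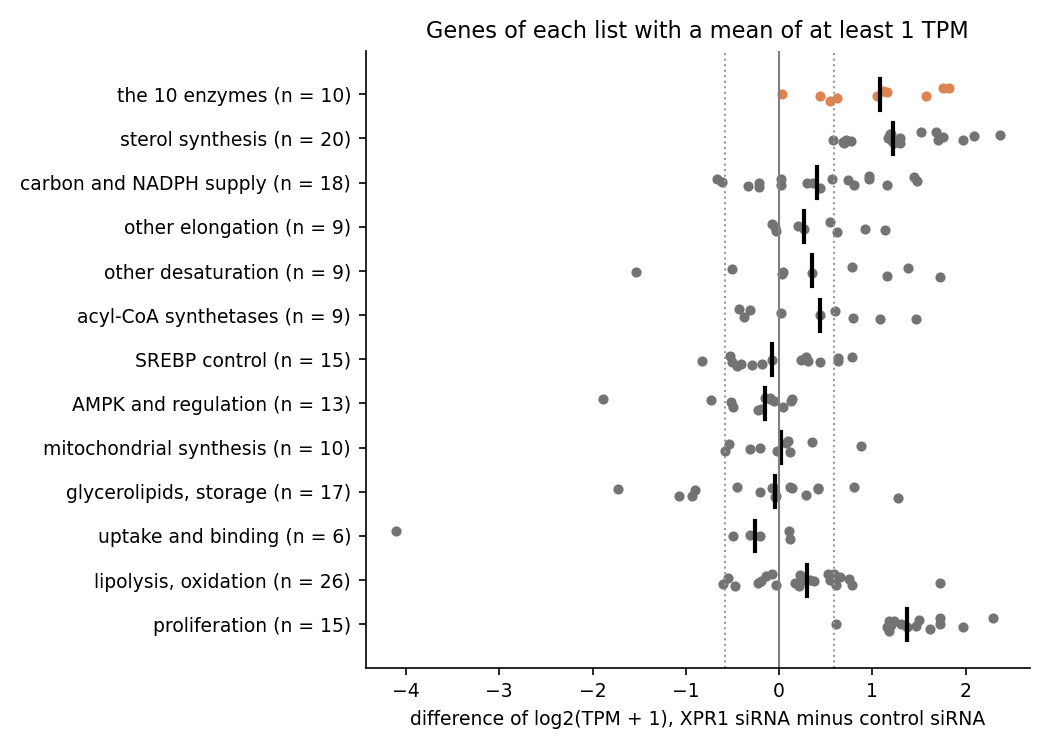
Difference of log2(TPM + 1), XPR1 siRNA minus control siRNA (x axis), for each gene averaging 1 TPM or more (points) in each list (rows, with n). Thick bars are list medians, dotted lines mark 1.5-fold, and the medians of the 10 enzymes (1.08), sterol synthesis (1.22) and proliferation (1.37) stand right of the upper dotted line.

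Neighbouring genes were looked at on each side of the enzymes. ACLY, ACACA and FASN lie on chromosome 17 and FADS1 and FADS2 on chromosome 11, where FADS1 lies within the span of FADS2, and the rest are on separate chromosomes. Of the 18 nearest expressed protein-coding genes on either side of the enzymes, 3 were at least 1.5-fold higher, 3 lower and 12 within 1.5-fold, with a median of 0.03. The higher ones were FEN1 beside FADS2, CNP beside ACLY (22.4 and 49.6 TPM) and UNG beside ACACB (35.1 and 72.9 TPM). TADA2A, which lies 56 bases from ACACA, was 16.0 and 10.1 TPM, opposite in direction to ACACA. GSS, 471 bases from ACSS2, was 50.4 and 50.9 TPM. Some gaps were far longer, so not all of these genes are close neighbours. The lower genes FAM241A and SEC31B lay 1946200 bases from ELOVL6 and 121808 bases from SCD. CYB5R4, within 1.5-fold, lay 428572 bases from ME1.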

How the data were processed

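RNA of TPC-1 cells was extracted with RNeasy Plus and made into unstranded TruSeq v2 libraries, per the labels' protocols. The submitters' processing notes name FastQC, MultiQC, Trimmomatic 0.38, featureCounts 2.0.0 and GRCh38. For the aligner and annotation release, none is given in the sources used here. TPM per gene is what the authors deposited, as 1 table for both libraries.

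Differences were taken on log2(TPM + 1), which understates those of low genes, over genes that averaged 1 TPM or more. Calls used 1.5-fold on that scale, and folds in the text are ratios of TPM. Reads were recovered from the steps of low TPM values with GENCODE 29 exon lengths, and 92.4% and 92.5% of values up to 10 reads came out within 0.01 of a whole number. Among the 10 enzymes only ACACB and ELOVL6 came out whole in both libraries, so reads of the others, and their intervals, are approximate. For a transcript of 2000 bases 1 read was worth 0.118 TPM with the control siRNA and 0.123 TPM with XPR1 siRNA. The code was tested on simulated data (Python 3.11.15, scipy 1.17.1).

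Of the gene IDs 58472 matched a symbol. The enzymes and gene lists were chosen with earlier results of these data known. Named were the enzymes, XPR1, known regulators and, from each list, genes among the 4 with the largest difference (for markers, the highest levels). Other genes, including neighbours of the enzymes, MLXIPL, THRSP, STK11, MPC1, HLCS, FADS3, CYB5R3 and markers at 0, were named after their values were seen. A few genes that the rule names are not reported here.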

Additional observations from a re-analysis of the deposited data

How the results depend on the processing

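No paired analysis was possible because a single library stands for each condition. The median difference of the 10 enzymes was 1.08 as reported, 1.03 with median-of-ratios scaling, 0.99 with upper-quartile scaling and 1.01 with a pseudocount of 5. These scalings divide all values of the XPR1-siRNA library by a single factor, and a larger pseudocount shrinks differences. The number at least 1.5-fold higher was 7 as reported and 6 under those 3 settings, each of which left out ACACA. Over all genes the shares higher and lower also differed by setting. They were 19.9% and 18.1% with median-of-ratios scaling, and 18.8% and 19.1% with upper-quartile scaling. With a pseudocount of 5 they were 12.7% and 9.10%, beside 21.7% and 16.6% as reported. No enzyme that passed 1.5-fold changed direction under the alternatives run, and FADS2, which did not pass it, turned below 0 under both scalings. Of 60 recomputed values of single enzymes 11 moved by more than 0.5 of the width of their counting interval. Of these, 3 were of ACACB (1.05 with a pseudocount of 5, 2.10 with 0.1, and 2.14 from TPM without a pseudocount, beside 1.76), 2 of SCD, and 1 each of ACLY, ACSS2, ACACA, FASN, ELOVL6 and FADS1. Medians of some lists depended on the filter, while those of carbon and NADPH supply (0.40) and proliferation (1.37) were the same at each filter. That of the further desaturation genes was 0.57 at a mean of at least 5 TPM, that of elongation 0.41 at 5 and at 0.1 TPM, and at 0.1 TPM those of acyl-CoA synthetases and glycerolipid genes were 0.24 and 0.04. The median of SREBP control ran from -0.17 with upper-quartile scaling to -0.04 at 0.1 TPM, and upper-quartile scaling gave -0.23 for regulators of the carboxylases and FASN and -0.13 for glycerolipid genes. These alternatives do not stand in for replicates. Counting error limits ACACB and FADS2 most, with 141 and 208 reads in control.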
